A study of Mus musculus with 12 samples.

Results

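The insulin-like growth factor (IGF) genes described here are the ligand Igf1, its receptor Igf1r and 6 genes of IGF binding proteins, Igfbp2, Igfbp3, Igfbp4, Igfbp5, Igfbp6 and Igfbp7. They were chosen by name, as 8 of the 21001 genes in the deposited tables, and their transcripts were summed per gene in each of 12 RNA sequencing libraries. All libraries came from GFP-marked bone marrow stromal cells (GFP-BMSCs) of C57BL/6 mice, with the genotype labelled "wide type", with 3 libraries in each of 4 groups. NC was the primary culture of these cells. HOMING was GFP-BMSCs recovered from the marrow of mice that had been given GFP-BMSCs alone under the skin. BM was GFP-BMSCs recovered from the marrow of mice that had been given them together with RFP-LLC, the Lewis lung carcinoma line marked with a red fluorescent protein. TUMOR was GFP-BMSCs recovered from the inoculation site of mice given both. Every group therefore carried the GFP mark, and the groups BM and TUMOR shared exposure to the carcinoma cells. The gate and purity of the sort and the age of the animals are not given in the sources used here. Whether the replicates came from different mice or dishes is not stated, so p-values measure only the spread between these libraries, which may be technical.

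IGF1 is a secreted growth factor that signals through the tyrosine kinase receptor encoded by Igf1r. IGF binding proteins are secreted carriers that hold IGFs in serum and in the matrix around cells, prolong their life and limit or deliver their access to the receptor. Proteases such as PAPP-A cut the carriers and release the ligand, and stanniocalcins inhibit PAPP-A. In bone marrow, IGF1 and its carriers are best known for their part in the growth and differentiation of bone-forming cells.

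The region around the transcription start is shown for Igfbp3, the tested carrier with the largest fold changes, and for Igfbp6. In BM against NC, Igfbp3 rose and Igfbp6 fell by more than 2-fold, while Igfbp4 and Igfbp7 fell by less. Each sequence is 1 window of 250 bases before to 50 bases after the start, read 5′ to 3′ on the strand of the gene from RefSeq on GRCm38.p6. The Igfbp3 window is chr11:7213874-7214173 on the minus strand and the Igfbp6 window is chr15:102143936-102144235 on the plus strand. Capitals mark matches on either strand to any of 7 motifs, the TATA box TATAAA, the GC box GGGCGG, the CCAAT box CCAAT, the E-box CACGTG, the hypoxia core ACGTG, which overlaps the E-box, the cyclic AMP element TGACGTCA and the AP-1 site TGACTCA.
Igfbp3: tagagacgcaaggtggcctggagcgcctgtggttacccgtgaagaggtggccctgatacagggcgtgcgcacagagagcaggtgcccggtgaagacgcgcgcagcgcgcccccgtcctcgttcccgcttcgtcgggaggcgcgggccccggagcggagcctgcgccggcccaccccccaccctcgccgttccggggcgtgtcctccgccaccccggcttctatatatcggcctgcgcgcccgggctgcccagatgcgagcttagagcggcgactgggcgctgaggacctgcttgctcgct
Igfbp6: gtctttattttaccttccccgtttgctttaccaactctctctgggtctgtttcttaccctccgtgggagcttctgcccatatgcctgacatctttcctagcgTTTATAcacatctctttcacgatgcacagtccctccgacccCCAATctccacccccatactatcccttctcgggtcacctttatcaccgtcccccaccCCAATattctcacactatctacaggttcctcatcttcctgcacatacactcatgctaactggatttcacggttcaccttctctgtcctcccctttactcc
The windows differed in composition, with 71.7% G and C for Igfbp3 and 49.7% for Igfbp6, beside a median of 52.7% over 32851 windows. The Igfbp6 window held 1 match to TATAAA, on the opposite strand, and 2 to CCAAT. Relative to the start, the TATAAA match began at -148 and the CCAAT matches at -107 and -50. These motifs occurred in 13.6% and 37.4% of all windows. The Igfbp3 window held none of the 7, and no match says only that these letters are not in this window. Of the other motifs, GGGCGG occurred in 35.7% of all windows, CACGTG in 7.15%, ACGTG in 19.6%, TGACGTCA in 1.79% and TGACTCA in 5.2%. All 8 genes matched the promoter table, with 9 windows in all. The build of the deposited files is mm8, so no position from these files is given.

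Libraries held 43232145 to 46166519 expected counts. Of the 16 stromal markers, 11 or 12 per group reached a mean of 1 FPKM (fragments corrected for transcript length and library depth), among them Col1a1, Col1a2, Itgb1 and Cd44. Thy1, Nt5e, Lepr and Lum stayed below 1 FPKM in every group. The HOMING libraries stood apart in markers of blood cells. All 4 pan-leukocyte markers reached a mean of 1 FPKM in HOMING, with summed levels of 121.43 to 193.13 FPKM, against 7.01 to 7.95 in BM, 0.09 to 0.12 in NC and 0.13 to 0.66 in TUMOR. All 7 erythroid markers did so in HOMING, at 2107.13 to 3470.42 FPKM, against 3.0 to 3.53 in BM, 0.31 to 0.89 in NC and 1.17 to 2.15 in TUMOR. Ptprc, the common leukocyte antigen, was at or near 0 in NC and TUMOR, and Cd52 was at 0 in every NC library. The 5 epithelial markers summed to 69.5 to 114.97 FPKM in TUMOR, almost all of it Krt8 and Krt19, against 6.31 to 6.93 in BM, 5.9 to 6.44 in HOMING and 1.92 to 4.23 in NC. Epcam was at or near 0 in all groups. All 3 HOMING libraries carried the blood markers, so no HOMING value can be given without them. The part of these markers in the results below was not tested.

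Of the 8 genes, 5 passed the expression filter of 1 FPKM in at least 3 libraries and did so in all 12 libraries. These were Igf1r, Igfbp3, Igfbp4, Igfbp6 and Igfbp7. The other 3, Igf1, Igfbp2 and Igfbp5, reached 1 FPKM in 0 libraries. Levels per transcript length were highest for Igfbp7, Igfbp6 and Igfbp4, which lay between 67.94 and 254.34 FPKM in every library. Igf1r lay between 6.96 and 12.84 FPKM.

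**Figure D1:**
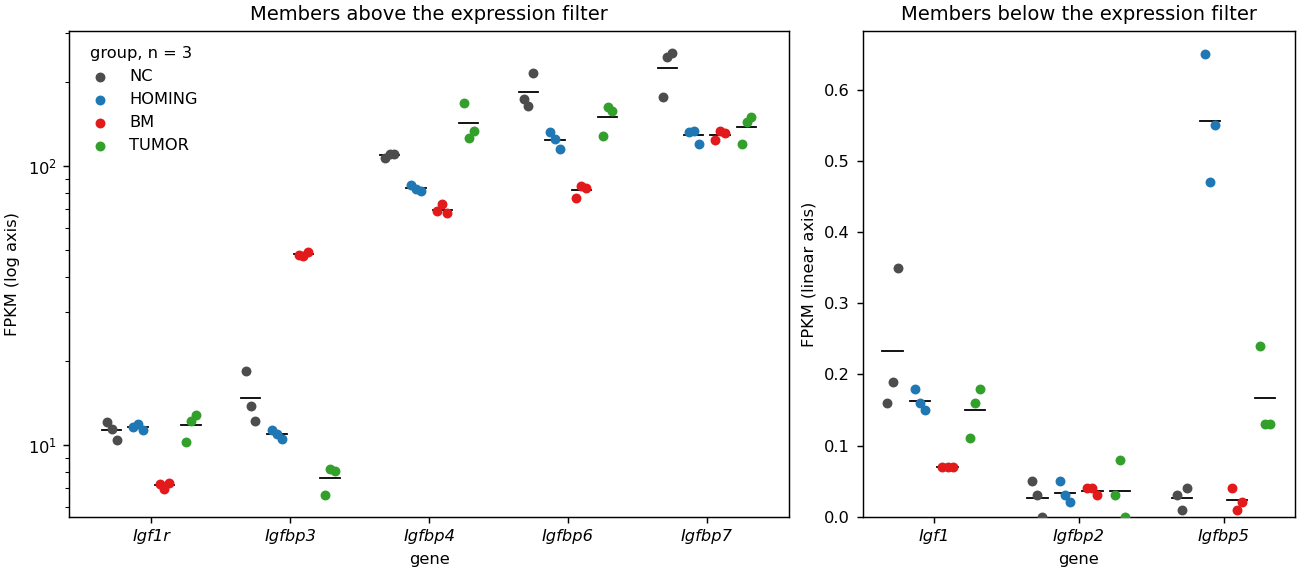
Level of the 8 genes in each of the 12 libraries, in FPKM, on a log axis for the 5 genes that passed the filter and on a linear axis for the 3 that did not. Points are libraries and bars are means of 3. The BM libraries of Igfbp3, at 47.49 to 49.41 FPKM, lie above all others, and the HOMING libraries of Igfbp5 lie above all others at 0.47 to 0.65 FPKM.

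The groups were compared in 6 contrasts with edgeR's quasi-likelihood test on expected counts, and a gene was called at a Benjamini-Hochberg adjusted p under 0.05 and a change of at least 2-fold. Contrasts share groups, so they are not independent of each other. In BM against HOMING, which sets marrow cells of tumour-bearing mice against those of mice given the cells alone, 1 of 5 genes tested was called higher and 0 lower, where 3.71% and 6.68% of all 12314 genes tested were. In BM against NC, 1 was called higher and 1 lower, beside 7.93% and 3.57% of all genes. In TUMOR against NC, 0 were called higher and 1 lower, beside 9.75% and 6.65%. In TUMOR against BM, 0 were called higher and 1 lower, beside 6.95% and 7.28%. In HOMING against NC, 0 of 5 were called in edgeR, beside 9.64% of all genes called higher and 4.69% lower. There, 4 of the 5 had an unadjusted p under 0.05, where 70% of all genes had an adjusted p under 0.05. DESeq2 and limma also called 0. In TUMOR against HOMING, 0 of 5 were called in edgeR, beside 4.42% higher and 6.37% lower. There, 3 had an unadjusted p under 0.05, where 55% of all genes had an adjusted p under 0.05. DESeq2 and limma also called 0. With 5 genes tested, these counts describe single genes and not the family.

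**Figure D2:**
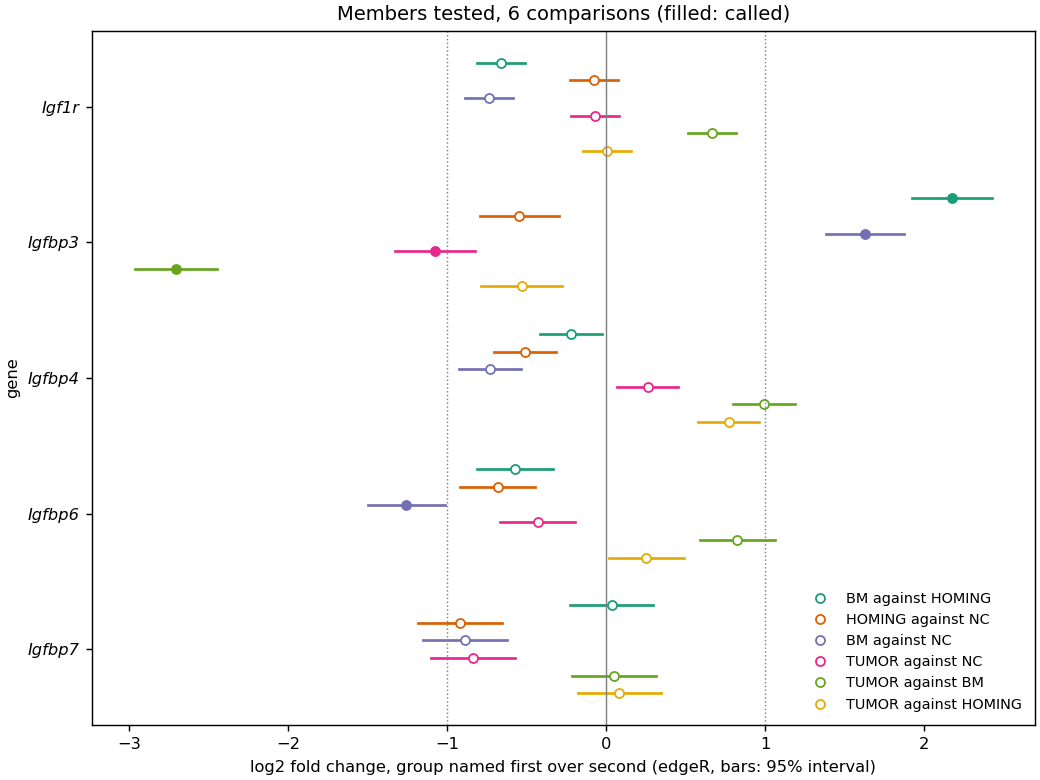
Log2 fold change of the 5 tested genes in the 6 contrasts, on the x axis, with 95% intervals from edgeR. Filled points were called, and dotted lines mark a 2-fold change. Igfbp3 spans from -2.70 in TUMOR against BM to 2.18 in BM against HOMING, and the other genes stay within -1.25 and 0.99.

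Igf1r, the receptor, was at its lowest in BM. Its level was 12.04, 11.45 and 10.44 FPKM in NC, 11.64, 11.87 and 11.27 in HOMING, 7.26, 6.96 and 7.28 in BM and 10.22, 12.2 and 12.84 in TUMOR. The BM libraries lay below every other library, and the other groups overlapped. The mean of 7.17 ± 0.179 FPKM (SD, n = 3) in BM against 11.6 ± 0.303 in HOMING was a log2 difference of -0.66 ± 0.07 (SE; edgeR, Benjamini-Hochberg adjusted p = 5.03e-06), which is under the 2-fold minimum. The differences from BM were -0.73 ± 0.07 against NC and 0.67 ± 0.07 for TUMOR against BM, also under that minimum. HOMING, NC and TUMOR were not told apart. The log2 difference was -0.07 for HOMING against NC, with a 95% interval of -0.22 to 0.08, and 0.01 for TUMOR against HOMING, with an interval of -0.14 to 0.16. The deposited tables list 3 transcripts of Igf1r, of which 1 gave 82 to 85.8% of the gene's FPKM in the 4 groups.

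Igf1, the ligand, was scarce in all groups. The deposited expected counts were 50, 59.91 and 113 in NC, 58, 51 and 46 in HOMING, 22, 21 and 20 in BM and 34, 51 and 56 in TUMOR, or at most 0.35 FPKM. The BM libraries were the lowest, and the other groups overlapped. In a fit of all genes without the filter, 20956 in number, Igf1 fell by 1.25 on the log2 scale in BM against HOMING (SE 0.316; edgeR, Benjamini-Hochberg adjusted p = 0.00466), where 8.37% of all genes were called lower. It fell by 1.87 in BM against NC (SE 0.308; adjusted p = 0.000127 in the same edgeR test), beside 4.62% of all genes. In TUMOR against BM it rose by 1.09 (SE 0.318, adjusted p = 0.00964), where 8.43% were called higher. That call was lost without TUMOR replicate 3, at 0.96. Counts this low give these values less precision than those of the abundant carriers.

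Igfbp3, the main carrier of IGFs in serum, was highest in BM and lowest in TUMOR. Its level was 48.01, 47.49 and 49.41 FPKM in BM, 18.37, 13.79 and 12.2 in NC, 11.31, 10.93 and 10.51 in HOMING and 6.63, 8.17 and 8.09 in TUMOR. The 4 groups did not overlap. Igfbp3 rose 4.52-fold in BM against HOMING (log2 2.18 ± 0.115 SE; edgeR, Benjamini-Hochberg adjusted p = 1.28e-08), from 10.9 ± 0.4 to 48.3 ± 0.993 FPKM (SD, n = 3). It rose 3.09-fold in BM against NC (adjusted p = 1.4e-07, edgeR). The pan-leukocyte and erythroid sums are given above. The 10 monocyte and macrophage markers summed to 188.14 to 304.04 FPKM in HOMING, 54.43 to 55.37 in BM and 13.5 to 19.28 in NC. The 12 neutrophil markers summed to 2664.05 to 3956.57 FPKM in HOMING, 411.16 to 435.41 in BM and 347.57 to 444.57 in NC. Most of the neutrophil sum in BM and NC was Lcn2, at means of 369.8 and 385 FPKM. Of the 12 neutrophil markers, 6 reached a mean of 1 FPKM in BM and 2 in NC. The part of these markers in the difference was not tested. In bulk RNA, fewer cells of a type and less RNA per cell cannot be told apart.

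The level at the inoculation site was lower than in the marrow of the tumour-bearing mice. Igfbp3 fell by 2.70 on the log2 scale in TUMOR against BM (SE 0.118; edgeR, Benjamini-Hochberg adjusted p = 1.78e-09), from 48.3 to 7.63 ± 0.867 FPKM. It fell by 1.08 in TUMOR against NC (SE 0.117; edgeR adjusted p = 2.84e-06), from 14.8 ± 3.2 FPKM. This call lies close to the 2-fold minimum. It was lost when counts were scaled by library size alone, at -0.95, in limma, at -0.86 with a pseudocount of 1 FPKM and -0.93 with 0.1, without NC replicate 1, at -0.90, and without TUMOR replicate 1, at -0.99. HOMING was lower than NC by 0.55 and TUMOR lower than HOMING by 0.53 on the log2 scale, with edgeR adjusted p of 0.000876 and 0.00204, under the 2-fold minimum.

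Igfbp4, a carrier that holds IGFs away from the receptor until PAPP-A cuts it, showed the reverse order at its ends. It stood at 168.48, 126.53 and 134.01 FPKM in TUMOR, 107.52, 110.39 and 110.76 in NC, 85.97, 82.57 and 81.21 in HOMING and 69, 72.93 and 67.94 in BM. The groups did not overlap. TUMOR was above BM by 0.99 ± 0.09 on the log2 scale (SE; edgeR, Benjamini-Hochberg adjusted p = 9.16e-07), from 70 ± 2.63 to 143 ± 22.4 FPKM, just under the 2-fold minimum. The value was 0.85 without TUMOR replicate 1, the highest library. It passed when counts were scaled by library size alone, at 1.03, in limma, at 1.01 and 1.02, on the highest transcript, at 1.00, without BM replicate 2, at 1.02, and without TUMOR replicate 2 or 3, at 1.08 and 1.04. TUMOR was also above HOMING, by 0.77 ± 0.09, and BM below NC, by a log2 difference of -0.73 ± 0.09. BM and HOMING differed least, by -0.22 ± 0.09 (edgeR adjusted p = 0.05).

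Igfbp6, a carrier that prefers IGF2 over IGF1, was highest in NC and lowest in BM. Its level was 173.92, 164.57 and 215.45 FPKM in NC, 128.13, 162.84 and 158.47 in TUMOR, 132.35, 125.76 and 115.2 in HOMING and 77.26, 84.86 and 83.8 in BM. The NC libraries lay above all others and the BM libraries below all others, while TUMOR and HOMING overlapped. Igfbp6 fell by 1.25 on the log2 scale in BM against NC (SE 0.11; edgeR, Benjamini-Hochberg adjusted p = 9.24e-07), from 185 ± 27.1 to 82 ± 4.12 FPKM. The other contrasts stayed under the 2-fold minimum. BM differed from HOMING by -0.57 ± 0.109 and TUMOR from BM by 0.83 ± 0.109. TUMOR and HOMING were not told apart at the threshold, at 0.25 ± 0.108 with a 95% interval of 0.02 to 0.49 (edgeR adjusted p = 0.0639).

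Igfbp7, a secreted protein of low affinity for IGFs, separated the culture from all recovered cells. It stood at 177.73, 246.04 and 254.34 FPKM in NC, 133.26, 134.32 and 119.79 in HOMING, 123.97, 133.39 and 131.18 in BM and 120.7, 144.24 and 149.89 in TUMOR. The NC libraries lay above all others, and the recovered groups overlapped. The log2 differences from NC were -0.92 ± 0.122 in HOMING, -0.88 ± 0.121 in BM and -0.84 ± 0.121 in TUMOR, all under the 2-fold minimum, with edgeR adjusted p between 1.98e-05 and 4e-05. NC replicate 1 was the lowest of its group. Without it, the differences of HOMING and BM passed, at -1.07 and -1.04. Among the recovered groups, the differences were 0.03 in BM against HOMING, with a 95% interval of -0.23 to 0.30, and 0.05 in TUMOR against BM, with an interval of -0.21 to 0.31.

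Igfbp5, a carrier abundant in bone matrix, was near 0 in culture and in BM. Expected counts were 8, 3 and 10 in NC, 168, 119 and 140 in HOMING, 11, 2 and 4 in BM and 60, 34 and 32 in TUMOR. HOMING lay above TUMOR, and TUMOR above NC and BM, which overlapped. In the fit without the filter, Igfbp5 rose by 4.24 on the log2 scale in HOMING against NC (SE 0.408; edgeR, Benjamini-Hochberg adjusted p = 3.22e-07), where 10.8% of all genes were called higher. It fell by 4.58 in BM against HOMING (SE 0.422; edgeR adjusted p = 3.8e-07). That value was -5.47 without BM replicate 1, which held 11 of the counts in BM. The HOMING libraries are those that carried the leukocyte and erythroid markers, and their part in this level was not tested.

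At the inoculation site, Igfbp5 rose by 2.46 on the log2 scale against NC (SE 0.442; edgeR, Benjamini-Hochberg adjusted p = 0.000188), where 9.88% of all genes were called higher. It rose by 2.81 against BM (SE 0.459; edgeR adjusted p = 9.76e-05), or by 3.70 without BM replicate 1. It fell by 1.77 against HOMING (SE 0.32; edgeR adjusted p = 0.000334), where 7.45% were called lower. In TUMOR the neutrophil markers summed to 44.65 to 47.75 FPKM, almost all of it Lcn2, at a mean of 45.24. The monocyte and macrophage markers summed to 25.11 to 25.71 FPKM, mostly Cd68 and Cd14, at means of 12.4 and 11.27. The part of these markers in the Igfbp5 level was not tested. BM and NC were not told apart, with a log2 difference of -0.34 ± 0.6 (edgeR adjusted p = 0.704).

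Igfbp2, another carrier found in serum, was not measurable at this depth. It had 0 to 3 expected counts in every library and at most 0.08 FPKM, so no fold change is given for it.

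The 6 carrier genes were also summed per library, in FPKM. The sum was 535 ± 57.6 (SD, n = 3) in NC, 348 ± 18.8 in HOMING, 330 ± 10.4 in BM and 439 ± 13.5 in TUMOR. The sums of HOMING and BM lay close together, while their make-up differed. Igfbp3 made up 14.7% of the sum in BM, against 3.14% in HOMING, 2.83% in NC and 1.74% in TUMOR. Igfbp6 made up 24.8% in BM and 34.1 to 35.7% in the other groups. Igfbp4 made up a mean of 32.7% in TUMOR, against means of 20.6 to 23.9% in the other groups. The TUMOR libraries differed, at 39.7% in replicate 1 and 28.6 and 29.7% in replicates 2 and 3. Within every library of NC, HOMING and BM, Igfbp7 was the highest of the carriers. Across libraries, its levels overlapped with those of Igfbp6 in NC and HOMING. The levels of Igfbp4, Igfbp6 and Igfbp7 overlapped in TUMOR.

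**Figure D3:**
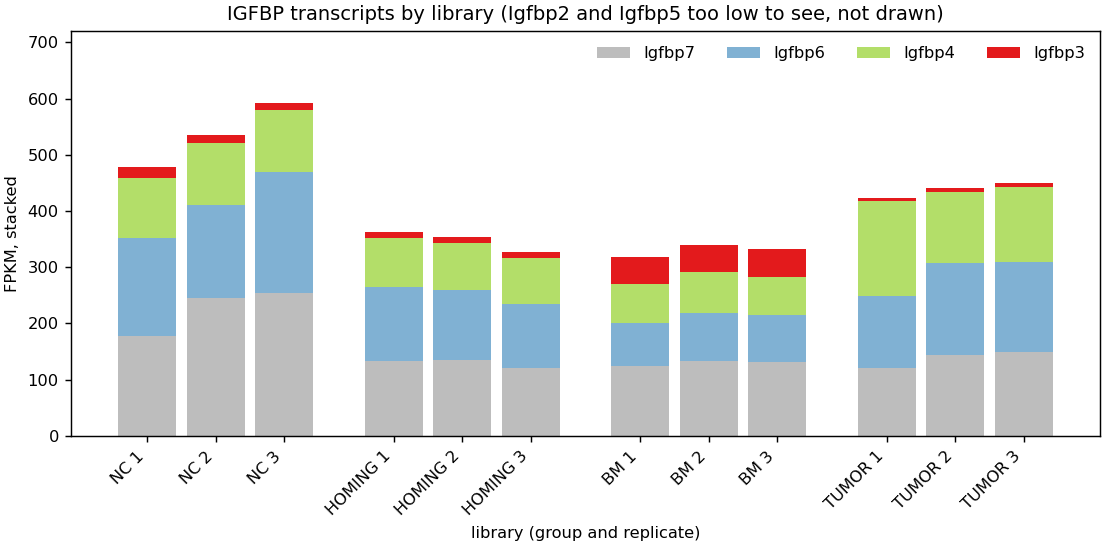
Stacked levels of Igfbp3, Igfbp4, Igfbp6 and Igfbp7 in each library, in FPKM; Igfbp2 and Igfbp5 are too low to draw. The Igfbp3 layer is deepest in the 3 BM libraries, where it makes up 14.7% of the sum, and thinnest in TUMOR, at 1.74%.

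For each tested gene, the 2 genes of the most similar pattern were found among 9076 candidates by the root mean square difference in log2(FPKM + 1) after each gene was centred over the 12 libraries. For Igfbp3 these were Serpine2, a serine protease inhibitor, at a distance of 0.34, and Tnfaip6, a secreted hyaluronan-binding protein, at 0.35. Serpine2 averaged 61.6 FPKM in NC, 69.9 in HOMING, 160 in BM and 33.8 in TUMOR. Tnfaip6 averaged 7.63, 2.93, 27 and 2.32 FPKM in the same order. Both peaked in BM, which follows from their choice by likeness to Igfbp3 in these same libraries. Their distances exceeded those of the neighbours of the other genes, and Igfbp3 was also the tested gene with the largest fold changes. Igf1r was closest to the Wnt receptor Fzd7, at 0.05, and Mettl26, at 0.09. Igfbp4 was closest to the potassium channel Kcnh2, at 0.08, and the prion protein Prnp, at 0.12. Igfbp6 was closest to Fhdc1, at 0.12, and Sorbs3, at 0.13. Igfbp7 was closest to Cd34, a surface protein of progenitor and endothelial cells, at 0.09, and Hyi, at 0.11. Cd34 averaged 171 FPKM in NC and 94.3 in HOMING, 100.4 in BM and 100.6 in TUMOR.

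The proteases that cut IGF binding proteins and their inhibitors form a list of 8 genes, of which 6 were tested. Pappa, the protease of Igfbp4, fell in all recovered groups, from 5.15 FPKM in NC to 0.997 in HOMING, 1.10 in BM and 1.35 in TUMOR. Its log2 changes were -2.48, -2.30 and -2.05, with edgeR Benjamini-Hochberg adjusted p of at most 1.51e-08. On the log2(FPKM + 1) scale of limma, which understates the change of low genes, they were -1.62, -1.54 and -1.39. Stc2, an inhibitor of PAPP-A, had its highest level in BM and its lowest in TUMOR, as Igfbp3 did. It averaged 35 FPKM in NC, 15.5 in HOMING, 59.6 in BM and 8.23 in TUMOR. It rose by 1.97 ± 0.145 on the log2 scale in BM against HOMING (edgeR adjusted p = 1.93e-07) and fell by 2.90 in TUMOR against BM (SE 0.153; edgeR adjusted p = 7.95e-09). It also fell by 1.29 in HOMING and by 2.21 in TUMOR against NC. Stc1, the other stanniocalcin, rose by 1.13 in BM and by 1.27 in TUMOR against NC. HOMING stood at the minimum itself, at a log2 difference of 1.000 ± 0.106 from NC that was not called (edgeR adjusted p = 2.7e-06), and BM and HOMING were not told apart, at 0.13 (adjusted p = 0.309). In BM against HOMING, 1 of the 6 was called higher and 1 lower, beside 3.71% and 6.68% of all genes. The list median there was 0.23 on the log2 scale, beside -0.01 for all genes tested. Against NC, 0 rose and 3 fell in HOMING, and 1 rose and 2 fell in each of BM and TUMOR, with list medians of -1.05, -0.71 and -0.91 beside 0.01 to 0.02 for all genes. Of all genes tested, 9.64% were called higher and 4.69% lower in HOMING, 7.93% and 3.57% in BM, and 9.75% and 6.65% in TUMOR.

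Htra1, a secreted serine protease that cuts binding proteins, fell by 1.25 in HOMING against NC, from 53.8 to 24.4 FPKM, and rose by 1.03 in TUMOR against HOMING. BM was below NC by a log2 difference of -0.97, under the minimum. The call in TUMOR against HOMING was lost without the filter, at 0.99, and without TUMOR replicate 1, at 0.95. Adam12, a metalloprotease that cuts Igfbp3 and Igfbp5, fell by 1.02 in BM against HOMING and by 1.09 against NC, from 2.17 and 2.10 to 1.05 FPKM. The first call was lost without HOMING replicate 1, at -0.99, and without BM replicate 3, at -0.97. The second was lost without NC replicate 3, at -0.70. In limma the Adam12 values were -0.63 and -0.54 with a pseudocount of 1 FPKM. In TUMOR against BM, 1 of the 6 was called lower (Stc2) and 0 higher, beside 7.28% and 6.95% of all genes, and in TUMOR against HOMING 1 was called higher (Htra1) and 0 lower, beside 4.42% and 6.37%.

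**Figure D4:**
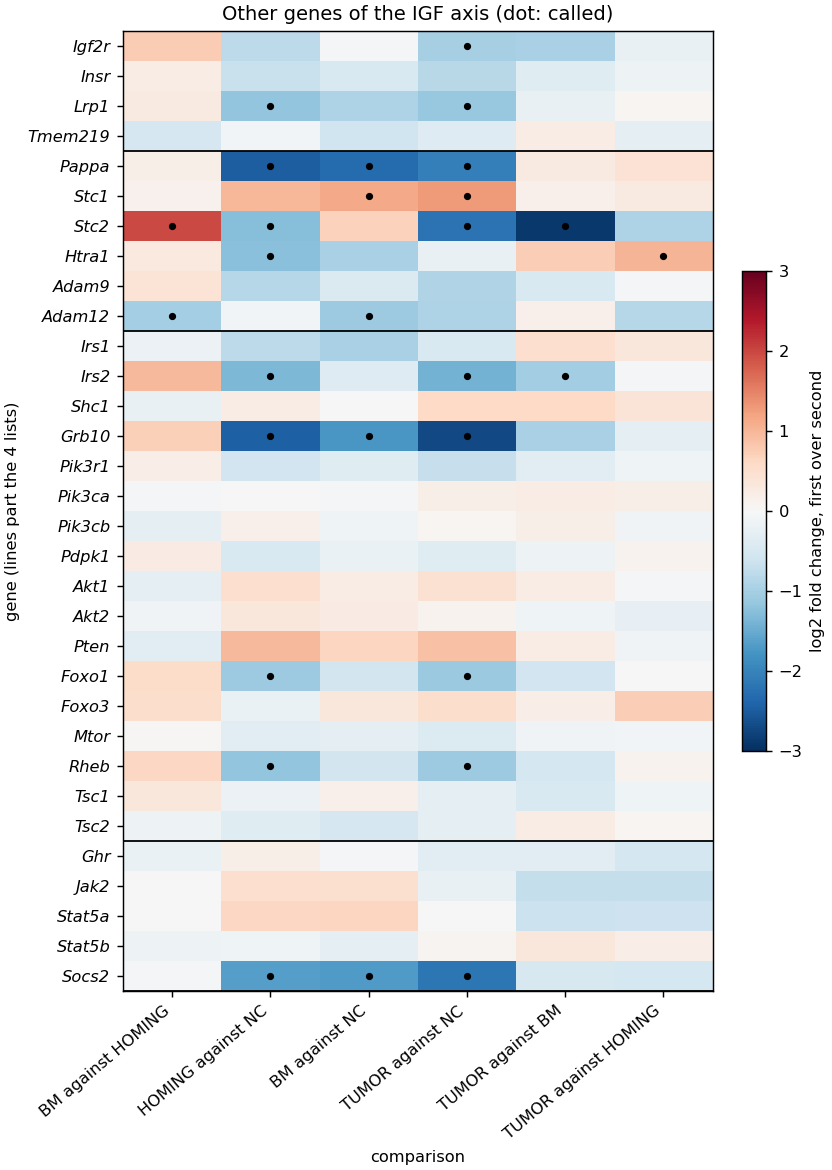
Log2 fold change of the 32 tested genes of the 4 lists (rows, parted by lines) in the 6 contrasts (columns), with red for higher and blue for lower in the group named first. Dots mark calls. Pappa, Grb10 and Socs2 carry a dot in all 3 contrasts against NC, at -2.71 to -1.64.

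Receptor signalling was represented by 17 genes, all tested. Grb10, an adaptor that restrains insulin and IGF receptors, fell in all recovered groups, from 59.3 FPKM in NC to 11.7 in HOMING, 18.8 in BM and 9.91 in TUMOR. The log2 changes were -2.45, -1.74 and -2.71, with edgeR Benjamini-Hochberg adjusted p of at most 1.42e-07. Irs2, a docking protein of these receptors, fell by 1.35 in HOMING and by 1.42 in TUMOR against NC. Foxo1, a transcription factor held out of the nucleus by this pathway, fell by 1.10 and 1.12 in the same contrasts, and Rheb, the GTPase that activates mTORC1, fell by 1.19 and 1.09. When counts were scaled by library size alone, both Foxo1 calls were lost, at -0.987 and -0.996, as was that of Rheb in TUMOR, at -0.96. The same calls were lost in limma, where Foxo1 stood at -0.86 and -0.88 and Rheb at -0.95 with a pseudocount of 1 FPKM. In BM against NC the log2 differences were -0.38 for Irs2, -0.55 for Foxo1 and -0.56 for Rheb, under the minimum. In all, 0 rose and 4 fell in HOMING against NC, 0 rose and 1 fell in BM against NC, and 0 rose and 4 fell in TUMOR against NC, beside 4.69%, 3.57% and 6.65% of all genes called lower. The list medians were -0.33, -0.21 and -0.30, beside 0.01 to 0.02 for all genes. In BM against HOMING, edgeR called 0 of the 17, beside 3.71% of all genes called higher and 6.68% lower. The list median there was 0.03, beside -0.005 for all genes. Of the 17, 14 had an unadjusted p under 0.05, where 58.1% of all genes had an adjusted p under 0.05.

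Irs2 also fell by 1.04 in TUMOR against BM, a call lost without BM replicate 2, at -0.99, without TUMOR replicate 1, at -0.94, and in limma and under scaling by library size alone. In TUMOR against HOMING, edgeR called 0 of the 17, beside 4.42% of all genes called higher and 6.37% lower. Of the 17, 7 had an unadjusted p under 0.05, where 55% of all genes had an adjusted p under 0.05.

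Among the 4 tested genes of the 9 other carriers and receptors, Lrp1, an endocytic receptor that binds Igfbp3, fell by 1.19 in HOMING and by 1.14 in TUMOR against NC, from 125 FPKM to 59.1 and 61.7. In BM it stood at 69.9 FPKM, a log2 difference of -0.92 from NC that was under the minimum (edgeR adjusted p = 1.65e-06). Igf2r, which clears IGF2 without signalling, fell by 1.00 in TUMOR against NC, from 31.1 to 16.9 FPKM, at the minimum itself. In HOMING it stood at 19.5 FPKM, a log2 difference of -0.79 from NC under the minimum (edgeR adjusted p = 3.06e-07). In BM it stood at 32.2 FPKM and was not told apart from NC, at -0.03 (edgeR adjusted p = 0.709). The Igf2r call was lost without NC replicate 1 or 2, at -0.98 and -0.97, and also without TUMOR replicate 1, at -0.94, and under other settings. Neither Insr nor Tmem219 was called in any contrast. Of the 5 genes that bring in growth hormone, all tested, Socs2 was the one called. Socs2 restrains growth hormone signalling, and it fell from 10.4 FPKM in NC to 3.6 in HOMING, 3.41 in BM and 2.52 in TUMOR. Its log2 changes were -1.64, -1.69 and -2.17, with edgeR Benjamini-Hochberg adjusted p of at most 1.18e-07. Ghr, the growth hormone receptor, Jak2, Stat5a and Stat5b were not called. Against NC, 4.69% of all genes tested were called lower in HOMING, 3.57% in BM and 6.65% in TUMOR.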

How the data were processed

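Each library has 1 table of transcripts. It holds the authors' expected counts, which are estimated and not normalized. It also holds the authors' FPKM, scaled for transcript length and for mapped fragments. Reads were mapped with Bowtie 0.12.2 to build mm8, per the submitters' processing notes, and the counting program is not named there. Both columns were summed per gene, unlisted transcripts were set to 0, and counts were rounded to whole numbers. Symbols were matched for 19629 of 19679 Entrez numbers. The 1322 genes without an Entrez number held 2.08 to 2.65% of counts.

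Groups were taken from the sample titles. The 12314 genes that reached 1 FPKM in 3 or more libraries were fitted in edgeR 4.0.16 (R 4.3.3) with TMM factors of 0.929 to 1.039, in one quasi-likelihood model of all 12 libraries with two-sided F-tests, adjusted by Benjamini and Hochberg over all genes tested. Standard errors were taken from the F statistic. The procedure was tested on simulated data. Igf1 and Igfbp5 were tested in the same fit without the filter. Alternatives used DESeq2 1.42.0, limma 3.58.1, other scalings, filters and transcript choices, the compared groups alone, a replicate block and each library left out. Python 3.11.15, pandas 2.3.3 and matplotlib 3.10.9 served tables and plots.

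All 8 members are named, and from the 4 lists of the IGF axis the genes called in a comparison, with the 2 nearest pattern neighbours of each tested member that had a mean of at least 5 FPKM in a group and were not predicted genes. Of the lists, 1 gene is not reported here. The members, lists and tests were chosen with earlier results of these data known.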

Additional observations from a re-analysis of the deposited data

How the results depend on the processing

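Igfbp3 in BM against HOMING, BM against NC and TUMOR against BM, and Igfbp6 in BM against NC, kept their call and direction under all alternatives run. Members called in BM against HOMING, BM against NC, TUMOR against NC and TUMOR against BM numbered 1, 2, 1 and 1, and in HOMING against NC and TUMOR against HOMING 0. Without the filter there were 3 in BM against HOMING, 1 in HOMING against NC, 3 in BM against NC, 2 in TUMOR against NC, 3 in TUMOR against BM and 1 in TUMOR against HOMING, where 12.1 to 16.3% of all genes were called. With no minimum fold change there were 4 in BM against HOMING, 4 in HOMING against NC, 5 in BM against NC, 4 in TUMOR against NC, 4 in TUMOR against BM and 2 in TUMOR against HOMING, of 5 tested, where 55 to 73.6% of all genes passed. Scaling by library size alone and limma with either pseudocount gave 0 in TUMOR against NC and 2 in TUMOR against BM, and the highest transcript gave 2 in the latter. With 1 library left out, the count ran from 0 to 1 in HOMING against NC and in TUMOR against NC, from 1 to 2 in TUMOR against BM and from 2 to 3 in BM against NC, the last without NC replicate 1. The cause was not tested.

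Differences near 0 changed sign. Igf1r in HOMING against NC was 0.038 with library size alone and 0.035 and 0.038 in limma. Igf1r in TUMOR against NC was 0.057, 0.047 and 0.051 in the same settings, and -0.135 to 0.018 with 1 library left out. Igf1r in TUMOR against HOMING was -0.007 with median-ratio scaling and in DESeq2, -0.024 without the filter, -0.003 on genes with a mean of 1 FPKM in NC and -0.061 to 0.092 with 1 library left out. Igfbp7 was -0.013 in TUMOR against BM without the filter, and with 1 library left out ran from -0.010 to 0.131 there and from -0.016 to 0.065 in BM against HOMING. Without the filter and with 1 library left out, Igfbp5 in BM against NC ran from -1.232 to 0.049 and Igf1 in TUMOR against HOMING from -0.295 to 0.017.

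Of 29 calls in 12 genes of the lists, 21 held under all alternatives and 0 changed sign. Library size alone moved the median of all genes by 0.113 in HOMING against NC and 0.124 in TUMOR against NC, and the share of calls that were higher from 67.3 to 74.6% and from 59.4 to 69.7%. Replicate numbers gave no clear pairing of the samples. Of same-number correlations, 1 of 18 exceeded 0.1, with a median of 0.010. Of different-number correlations, 3 of 36 did, with a median of -0.006. Of 36 matches of a library to another group, 14 were best with their own number. Whether a number marks a shared animal or day is not stated, and these correlations cannot settle it. A replicate block left each count of members called as it was and gave 1285 calls over all genes in BM against HOMING beside 1280. Depth limits Igf1, Igfbp2 and Igfbp5, whose counts were low in most groups.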

Other observations

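Some genes of the lists were too scarce to be tested. Igf2, the other IGF ligand, summed to 26 expected counts over the 3 NC libraries, 29 in HOMING, 19 in BM and 26.7 in TUMOR. Igfbp1, a carrier made mainly by liver, had 2 counts in BM and 0 in the other groups. Igfals, the subunit that joins Igfbp3 and an IGF in serum, had 13 counts in NC, 15 in HOMING, 11 in BM and 31 in TUMOR. Pappa2, a relative of Pappa that cuts Igfbp5, had 223 counts in NC, 92 in HOMING, 299 in BM and 175 in TUMOR, at a mean of at most 0.26 FPKM. Insrr, a receptor related to Igf1r, had 60 counts in TUMOR, 14 in NC, 11 in BM and 4 in HOMING.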
